A study of Rattus norvegicus with 158 samples.

Results

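The 32 genes described here carry long-chain fatty acids into the muscle fibre, into its mitochondria and through beta-oxidation, and the list is one of gene names, drawn up with earlier results of these data known. All 32 had a probe set of their own among the 14217 genes tested, and where a gene had several, the one with the highest mean over all arrays stood for it. Transcripts were measured in thigh muscle of male Sprague-Dawley rats on 158 arrays, of which 122 came from rats given 1 of 21 compounds and 36 from rats given a vehicle alone. Rats were dosed daily by oral gavage with 1 dose per compound and sampled after 3 d or 5 d, so neither a dose series nor a recovery was measured. The vehicle Water carried Dexchlorpheniramine at 47 mg/kg, Dicyclomine at 645, Etidronate at 1005, Gabapentin at 2500, Losartan at 1000, Oxybutynin at 230, Paroxetine at 104, Phenytoin at 572 and Trimethadione at 535 mg/kg. CMC carried Azaribine at 750 mg/kg, Famotidine at 1200, Spironolactone at 300, Sulpiride at 1000, Atenolol at 1000, Buspirone at 196, Chlorpropamide at 269, Flunarizine at 126, Glyburide at 1500, Guanethidine at 132, Levosulpiride at 1200 and Pentoxifylline at 1170 mg/kg. Arrays per compound numbered 3 at each time, but Dicyclomine had 2 and 2, Glyburide 2 at 3 d and 3 at 5 d, and Paroxetine 3 at 3 d and 2 at 5 d. Controls numbered 18 for Water, 12 for CMC and 6 for CMC/SDS/Povidone, the last group at 5 d only and with no compound of its own. Compounds of 1 vehicle shared all of its controls, so their changes are not independent of each other.

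Fatty acids enter the fibre through membrane carriers, are joined to coenzyme A and cross the mitochondrial membrane as carnitine esters. In the matrix they lose acetyl units in repeated rounds of dehydrogenation, hydration, a further dehydrogenation and thiolysis, and unsaturated acids need auxiliary enzymes for their double bonds. Many of these genes are known targets of the peroxisome proliferator-activated receptors (PPARs), which bind DNA with the retinoid X receptor and respond to fatty acids. Ehhadh and Crot, both in the list, encode peroxisomal enzymes.

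Before the expression values, the start regions of 4 members are shown, because the PPARs bind a direct repeat of AGGTCA spaced by 1 base (DR1) and these 4 include the member called in most compounds, the one that fell furthest, the one with the closest DR1 and a lipid droplet gene with a single AGGTCA. Windows run from 250 bases before to 50 after the gene start and come from RefSeq on build GRCr8, where 26 of the 32 members had one. Capitals mark AGGTCA and DR1 matches on the printed strand.
Ehhadh, chr11:92746159-92746458, + strand: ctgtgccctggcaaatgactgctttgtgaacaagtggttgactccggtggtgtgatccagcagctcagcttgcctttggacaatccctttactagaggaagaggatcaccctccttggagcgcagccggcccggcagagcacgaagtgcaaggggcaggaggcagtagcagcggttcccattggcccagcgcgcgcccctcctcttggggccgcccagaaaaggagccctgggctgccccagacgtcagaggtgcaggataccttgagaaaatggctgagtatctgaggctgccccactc
Cd36, chr4:18246332-18246631, + strand: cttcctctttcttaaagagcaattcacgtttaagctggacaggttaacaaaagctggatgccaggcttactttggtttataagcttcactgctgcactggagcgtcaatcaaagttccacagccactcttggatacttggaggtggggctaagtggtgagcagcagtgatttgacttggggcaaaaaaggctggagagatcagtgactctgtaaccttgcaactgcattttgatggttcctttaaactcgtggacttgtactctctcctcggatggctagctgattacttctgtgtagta
Plin5, chr9:1033235-1033534, - strand: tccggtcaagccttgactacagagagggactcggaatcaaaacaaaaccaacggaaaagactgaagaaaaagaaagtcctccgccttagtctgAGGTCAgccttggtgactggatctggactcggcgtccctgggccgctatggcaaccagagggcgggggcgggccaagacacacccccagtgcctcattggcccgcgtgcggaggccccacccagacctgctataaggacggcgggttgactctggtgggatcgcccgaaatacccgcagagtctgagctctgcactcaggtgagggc
Acadvl, chr10:55236656-55236955, - strand: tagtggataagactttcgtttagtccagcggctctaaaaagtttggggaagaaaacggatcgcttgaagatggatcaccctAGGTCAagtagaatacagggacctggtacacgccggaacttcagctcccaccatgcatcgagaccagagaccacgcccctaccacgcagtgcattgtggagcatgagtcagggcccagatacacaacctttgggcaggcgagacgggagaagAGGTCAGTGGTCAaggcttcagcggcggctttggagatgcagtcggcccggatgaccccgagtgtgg
The DR1 letters AGGTCANAGGTCA, searched on both strands with up to 2 mismatches, were found in 4 of the 26 windows and in 3.77% of 33469 rat windows of the same length. Acadvl held the closest, AGGTCAGTGGTCA at position -17 with 1 mismatch, and Slc25a20, Etfa and Crat held matches with 2 mismatches. The exact hexamer AGGTCA, which lies within a DR1 and can overlap it, was in 5 of 26 member windows against 16.2% of all windows. In Plin5 it stood at position -157, and the windows of Ehhadh and Cd36 held neither set of letters. The E-box CACGTG was in 1 member window, that of Plin2, against 6.42% of all windows.

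Values were deposited on the log2 scale, and a change is the mean of treated minus that of own-vehicle control arrays with time as a covariate. A call needed an adjusted p no higher than 0.01 together with a change of at least 1.5-fold, the limits the study set. The adjusted p is limma's with Benjamini-Hochberg adjustment over all genes of 1 compound. Skeletal muscle markers were high on every control array, with a mean over the 8 genes of 13.88 to 14.07 in Water and CMC controls, while the mean of 7 slow fibre genes ran from 5.35 to 12.99 over the same controls. In such bulk tissue, fewer cells of a type and less RNA per cell cannot be told apart. RNA had been extracted in 7 batches, lettered A to G here, and 8 of the 12 CMC compounds had no CMC control in any batch of their own. These were Levosulpiride, Guanethidine, Glyburide, Atenolol, Chlorpropamide, Buspirone, Flunarizine and Pentoxifylline, for which compound and batch cannot be told apart in the comparison with controls. Batch D held 30 treated arrays and 0 controls. On 3 treated arrays, 1 each of Atenolol, Chlorpropamide and Glyburide, the Gapdh 3-prime probe set exceeded the 5-prime one by over 1 on the log2 scale, which is a measure of RNA integrity, against 0.0954 to 0.278 on the 36 control arrays.

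Members were called 16 times among 672 pairs of gene and compound, 12 times higher and 4 times lower, which is 2.38% of pairs. The whole table had 4889 calls among 298557 pairs, or 1.64%. By direction, 1.79% of member pairs and 0.688% of all pairs were called higher, while 0.595% and 0.949% were called lower. In the 13 compounds with vehicle controls in at least 1 of their own batches, 9 of 416 member pairs were called, or 2.16%, against 0.856% of all gene pairs. In the 8 without, 7 of 256 were called, or 2.73%, against 2.91% of all gene pairs. At an adjusted p of 0.05 with no minimum fold, 56 member pairs passed, or 8.33%, against 6.66% of all gene pairs. Among genes above the median level, which hold 30 of the members, 13 member pairs were called. That was 2.06% of member pairs against 2.74% of all gene pairs, so the order of the shares depends on the level of the genes compared. The calls fell on 9 members and 8 compounds, and 23 members were called in none of the 21 compounds. The group of auxiliary enzymes held 7 of the 16 calls, 5 of them of the peroxisomal Ehhadh. In that group Ech1 and Decr1 were called in Dicyclomine rats alone. The acyl-CoA dehydrogenases, the later steps of the spiral, the electron transfer flavoproteins and the thioesterases held none.

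**Figure D1:**
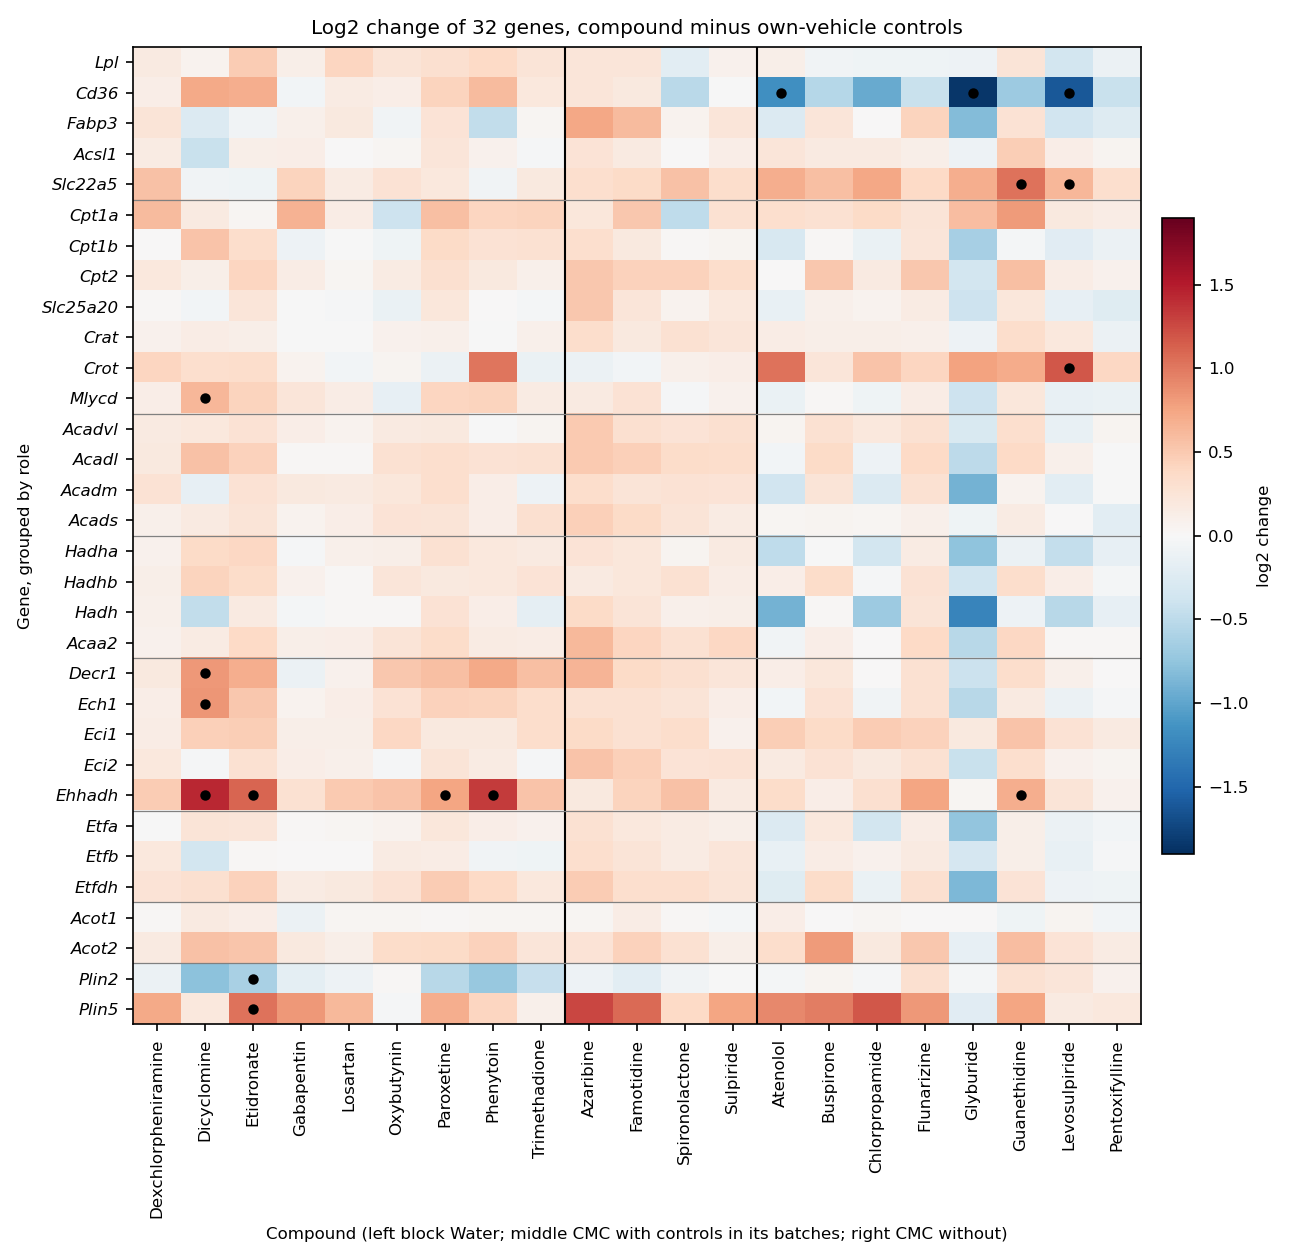
Log2 change of each of the 32 genes (rows, grouped by role) in each of the 21 compounds (columns, in 3 blocks by vehicle and by whether controls of that vehicle shared the extraction batches), as treated minus own-vehicle controls, with black dots on the 16 called pairs. Ehhadh carries 5 dots, all higher, and Cd36 carries 3, all lower and all in the block without CMC controls in its batches.

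Dicyclomine, an antimuscarinic, had the most member calls, with Ehhadh, Ech1, Decr1 and Mlycd higher, 4 of 32 members where 5.64% of all genes were called. Etidronate, a bisphosphonate, had Ehhadh and Plin5 higher and Plin2 lower, 3 of 32 where 2.48% of all genes were called. Phenytoin, an anticonvulsant (0.317% of all genes called), and Paroxetine, a serotonin reuptake inhibitor (0.682%), had Ehhadh alone. Among compounds without CMC controls in their batches, Levosulpiride, a dopamine receptor blocker, had Slc22a5 and Crot higher and Cd36 lower with 5.47% of all genes called. Guanethidine, which blocks sympathetic nerve endings, had Slc22a5 and Ehhadh higher with 4.69% of all genes called. Atenolol, a beta blocker (5.25%), and Glyburide, a sulfonylurea (4.1%), had Cd36 lower and no other member called. The remaining 13 compounds had 0 members called by limma. All genes were called there at 3.17% in Chlorpropamide, 0.809% in Losartan, 0.457% in Trimethadione, 0.436% in Buspirone, 0.429% in Gabapentin, 0.183% in Sulpiride and 0.12% in Flunarizine. The shares were 0.0844% in Oxybutynin, 0.0422% in Azaribine, 0.0141% in Pentoxifylline, 0.00703% in Famotidine and 0% in Dexchlorpheniramine and Spironolactone.

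Ehhadh encodes the peroxisomal bifunctional enzyme, which hydrates and then dehydrogenates enoyl-CoA. Its probe set was dim, with a mean of 5.56 over all arrays, at percentile 32.2 of the genes tested. Without detection calls, its signal over background is not known. The change of Ehhadh was above 0 in all 21 compounds, with a median of 0.48 on the log2 scale. Of the 122 treated arrays, 42 lay above the highest control of either vehicle, spread over 16 compounds, and 24 exceeded 6. The 18 Water controls ran from 4.67 to 5.58 with a median of 5.25, and the 12 CMC controls from 4.85 to 5.71 with a median of 5.13.

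In Dicyclomine rats Ehhadh stood at 7.59 and 5.46 at 3 d and at 6.65 and 6.68 at 5 d, so that 3 of 4 arrays lay above every Water control. The change was 1.43 ± 0.22 (SE), a 2.70-fold rise (n = 4 treated and 18 controls, limma adjusted p = 0.000116). Of the marker lists of other cells in Dicyclomine rats, the red blood cell genes Hbb and Alas2 and the endothelial gene Kdr were called lower and the brown fat gene Cidea higher, with brown fat means of 5.15 to 5.96 against 4.59 to 5.23 in Water controls, while 0 of 9 fat cell and 0 of 7 slow fibre genes were called. The mean of 4 tendon genes lay at 6.13 to 6.39 in Dicyclomine rats, against 6.27 to 9.68 in Water controls, and the part of these genes was not tested. Etidronate rats had 6.94, 7.51 and 6.46 at 3 d and 5.73, 5.54 and 5.41 at 5 d. All 3 arrays at 3 d and 1 of 3 at 5 d stood above every Water control. Over both times Ehhadh rose by 1.11 ± 0.20 (SE), or 2.15-fold, in Etidronate rats (n = 6 and 18, limma adjusted p = 0.000687). The Etidronate change was 1.83 at 3 d and 0.38 at 5 d, and this difference of -1.45 passed the test of time by treatment (limma adjusted p = 0.0161), the only 1 of the 672 pairs to do so at 0.05. In Etidronate 0.626% of all genes passed that test, in Dicyclomine 3.98% and in each other compound 0.0422% or less.

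Phenytoin rats had Ehhadh at 6.01, 8.31 and 7.61 at 3 d and at 6.03, 5.87 and 5.12 at 5 d. Ehhadh was above every Water control on 5 of the 6 arrays and 1 of them held the highest Ehhadh value of all 158 arrays. The change was 1.33 ± 0.27 (SE), 2.52-fold (n = 6 and 18, limma adjusted p = 0.00908). The changes of 2.17 at 3 d and 0.49 at 5 d did not pass the test of their difference (limma adjusted p = 0.14). The call was lost with any of 3 treated arrays left out, with 0.99 (adjusted p = 0.0419) without 3 d replicate 2, 1.14 (0.0532) without 3 d replicate 3 and 1.39 (0.0105) without 5 d replicate 1. It was also lost without any of 15 of the 18 controls, all but 5 d replicates 1, 4 and 7, with changes of 1.29 to 1.36 and limma adjusted p of 0.0103 to 0.0146. The array with Ehhadh at 7.61 also had the highest mean of 9 fat cell genes in this comparison, 10.15 against at most 8.53 in Water controls, with Adipoq at 11.18 and the brown fat gene Ucp1 at 7.05. With the fat cell level as a covariate Ehhadh changed by 1.21 in Phenytoin rats (limma adjusted p = 0.0185), short of the threshold. The array at 8.31 had a fat cell mean of 7.68, within the control range.

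Paroxetine rats had Ehhadh at 5.91, 5.45 and 5.41 at 3 d and at 6.33 and 6.32 at 5 d, of which 3 of 5 lay above every Water control. It rose by 0.74 ± 0.14 (SE), 1.67-fold (n = 5 and 18, limma adjusted p = 0.00536). Without 3 d replicate 1, 5 d replicate 1 or 5 d replicate 2 of Paroxetine the change was 0.72, 0.65 and 0.65 in that order and no longer passed (limma adjusted p of 0.0246, 0.0230 and 0.0381).

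Guanethidine rats had Ehhadh at 6.58, 5.34 and 6.15 at 3 d and at 5.62, 6.00 and 5.49 at 5 d, with 3 of 6 above every CMC control. The change was 0.70 ± 0.17 (SE), 1.62-fold (n = 6 and 12, limma adjusted p = 0.0067), in a compound with no CMC control in its batches. Leaving out Guanethidine 3 d replicate 1 or 3, or 5 d replicate 1 or 2, gave changes of 0.54 to 0.74 with limma adjusted p of 0.0104 to 0.0225, short of a call. Leaving out CMC control 3 d replicate 2 or 3 or 5 d replicate 4 gave 0.67 to 0.68 for Ehhadh, with adjusted p of 0.0103 to 0.0126. With the code that opens each array's title as a random block it was 0.70 (adjusted p = 0.0111). Of the marker lists in Guanethidine rats only the red blood cell gene Hbb was called, at -0.955 (limma adjusted p = 0.00366), with red blood cell means of 6.98 to 7.57 against 7.36 to 8.10 in CMC controls. The mean of 7 slow fibre genes lay between 11.22 and 12.61 in Guanethidine rats, against 5.35 to 12.92 in CMC controls, with 0 of the 7 called. The muscle gene Des stood at -0.39 (limma adjusted p = 0.00471), short of the fold for a call. The part of these genes in the changes of Ehhadh and Slc22a5 was not tested.

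**Figure D2:**
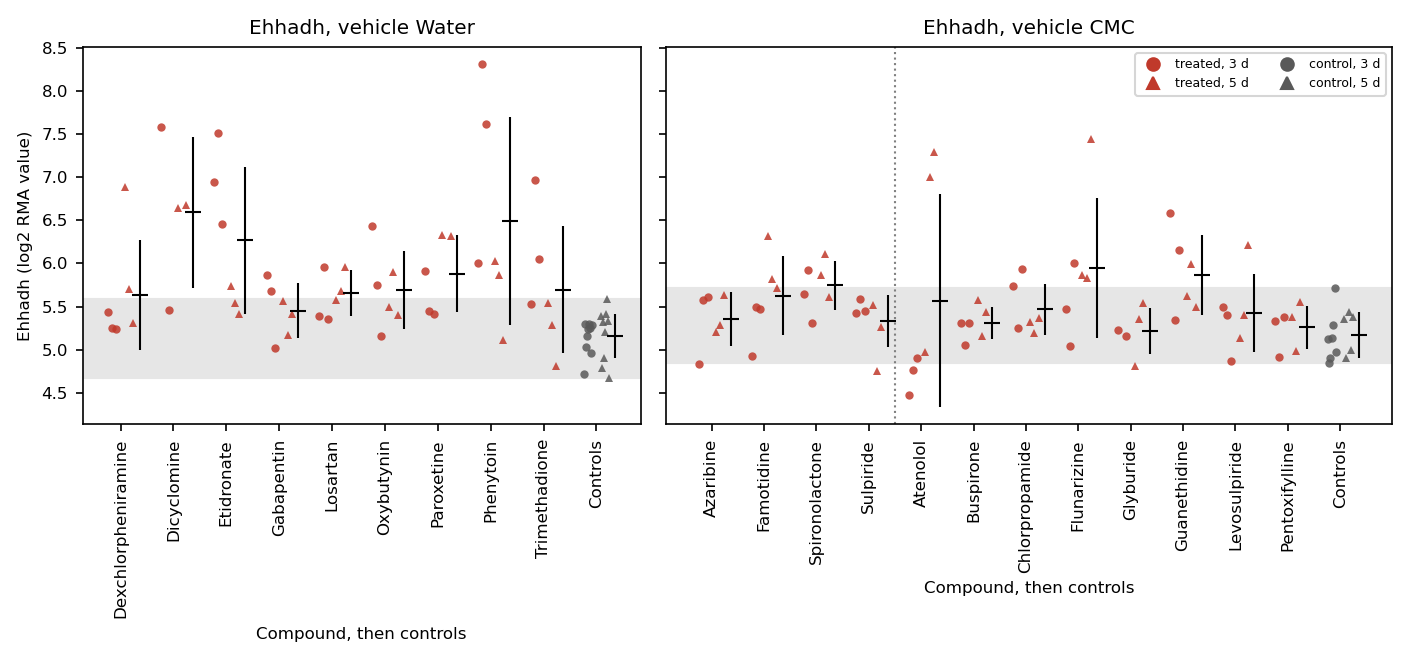
Ehhadh on every array, as log2 RMA value, by compound (red) with its vehicle's controls (grey) on the right of each panel; circles are 3 d and triangles 5 d, bars are mean ± SD, the grey band is the control range and the dotted line separates the CMC compounds with and without CMC controls in their batches. High single arrays appear in Dicyclomine, Etidronate, Phenytoin, Atenolol and Flunarizine, while controls stay between 4.67 and 5.71.

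High single arrays also occurred where Ehhadh was not called. Atenolol 5 d arrays had 4.98, 7.00 and 7.29, and its 3 d arrays all lay below 5, so the change of 0.34 ± 0.31 (SE) missed the threshold (limma adjusted p = 0.467). In Flunarizine 4 of 6 arrays lay above every CMC control, for a change of 0.74 ± 0.23 (SE, limma adjusted p = 0.137). Losartan at 0.49 and Spironolactone at 0.56 passed an adjusted p of 0.05 (0.0229 and 0.0435, limma) but not the threshold for a call. At that looser threshold 2.43% of all genes were past it in Losartan and 1.15% in Spironolactone.

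The call of Ehhadh was checked against extraction batch. When batch entered as a block, in a single model over every array, Ehhadh was called in Dicyclomine (1.43, limma adjusted p = 0.000825), Etidronate (1.04, 0.00511) and Phenytoin (1.34, 0.00102). These were the only 3 member calls left under the block, 0.446% of member pairs beside 0.538% of all gene pairs. In Paroxetine it changed by 0.76 (adjusted p = 0.304) and in Guanethidine by 1.37 (0.0449), where against other compounds of the same batches it was 0.45 (0.913). Batch D, which has no control, is tied to controls in that model only through compounds that also have arrays in other batches. Restricted to batches shared by treated rats and controls, the changes of Ehhadh were 1.55 in Dicyclomine, 0.95 in Etidronate, 1.18 in Phenytoin and 0.66 in Paroxetine, with limma adjusted p of 0.0437 to 0.18 on fewer arrays. Titles of the arrays open with a code, and Dicyclomine shared its code with 4 Water controls. Against these alone Ehhadh changed by 1.67, Ech1 by 0.76, Decr1 by 0.66 and Mlycd by 0.74 in Dicyclomine rats, with limma adjusted p of 0.123 to 0.284. In that comparison of 4 with 4 arrays limma called 0 of all genes, and 11 of 32 members and 18.4% of all genes had an unadjusted p under 0.05.

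Ech1 and Decr1 were grouped with Ehhadh as auxiliary enzymes. Ech1 moves double bonds in dienoyl-CoA, and Decr1 reduces 2,4-dienoyl-CoA, both in mitochondria. Ech1 was 12.39 and 11.66 at 3 d and 12.11 and 12.13 at 5 d in Dicyclomine rats, against a range of 10.99 to 11.60 with a median of 11.24 in Water controls. All 4 treated arrays lay above all 18 controls, and the change was 0.84 ± 0.11 (SE), 1.79-fold (limma adjusted p = 3.16e-05). Dicyclomine arrays were all in batch B, where controls of any vehicle ran from 10.87 to 11.73 with a median of 11.39. The call of Ech1 was lost with batch as a block and within shared batches. Over the alternative settings its change stayed between 0.64 and 0.87. Ech1 also passed an adjusted p of 0.01 in Etidronate rats at 0.52 (0.00638, limma), below the fold of 1.5.

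Decr1 was 11.06 and 10.54 at 3 d and 10.82 and 10.79 at 5 d in Dicyclomine rats, against 9.22 to 10.48 with a median of 9.98 in Water controls. Again no treated array overlapped the controls, and Decr1 rose by 0.82 ± 0.19 (SE), 1.77-fold (limma adjusted p = 0.00364). It missed the threshold without Dicyclomine 3 d replicate 1 (0.77, adjusted p = 0.0222), 5 d replicate 1 (0.78, 0.0223) or 5 d replicate 2 (0.79, 0.0245). With batch as a block Decr1 changed by 0.41 (limma adjusted p = 0.314). In Phenytoin (0.72, adjusted p = 0.0177), Etidronate (0.68, 0.0227) and Trimethadione (0.58, 0.0375) Decr1 passed limma's adjusted p of 0.05 alone, where 3.08%, 11.2% and 3.95% of all genes did so.

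Eci1 and Eci2 encode enoyl-CoA isomerases that shift double bonds, and neither was called. Eci1 nevertheless had a change above 0 in all 21 compounds, with a median of 0.34 and a highest value of 0.54 in Guanethidine rats (limma adjusted p = 0.0200). Eci2 ran from -0.42 in Glyburide to 0.54 in Azaribine rats. Over the 105 pairs of the 5 auxiliary enzymes, Ehhadh among them, the median change was 0.27, against 0.0051 over all genes and compounds. It was 0.16 over all member pairs and between 0.12 and 0.19 in each other role, so a median above 0 was not particular to this group.

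Among the genes of fatty acid entry, Lpl frees fatty acids from circulating lipoproteins, Cd36 carries them across the membrane, Fabp3 binds them in the cytosol, Acsl1 joins them to coenzyme A and Slc22a5 imports carnitine. Cd36 fell in 3 compounds and Slc22a5 rose in 2, all of them compounds without CMC controls in their batches. Lpl, Fabp3 and Acsl1 were called in none, with changes of Fabp3 between -0.82 in Glyburide and 0.74 in Azaribine rats and the other 2 within a change of 0.49 either way.

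Cd36 in Levosulpiride rats was 8.52, 8.90 and 7.99 at 3 d and 7.22, 8.32 and 9.44 at 5 d, against 8.56 to 10.62 with a median of 10.20 in CMC controls. On 4 of 6 arrays it lay below every CMC control. The change was -1.60 ± 0.31 (SE), 3.04-fold lower (n = 6 and 12, limma adjusted p = 0.00139). Atenolol rats had 8.35, 8.56 and 8.81 at 3 d and 8.39, 9.42 and 9.59 at 5 d, which overlap the controls except for 2 arrays below them. Cd36 changed by -1.17 ± 0.26 (SE) in Atenolol rats, 2.25-fold lower (n = 6 and 12, limma adjusted p = 0.00462). Glyburide rats had 9.25 and 7.66 at 3 d and 8.62, 6.21 and 9.08 at 5 d, the last group spread the widest. The change was -1.85 ± 0.43 (SE), 3.60-fold lower (n = 5 and 12, limma adjusted p = 0.00879).

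These falls of Cd36 could not be separated from extraction batch. Cd36 had a median of 8.62 over the 30 treated arrays of batch D, which includes all arrays of Levosulpiride, Atenolol and Glyburide and no control. Of the 12 treated arrays below the lowest control of the table, at 8.50, 10 were in batch D. In the model with batch as a block, batch D is tied to controls only through compounds that also have arrays in other batches. In batch D these were 1 array each of Oxybutynin, Spironolactone and Buspirone and 5 each of Guanethidine and Chlorpropamide. With that block the change of Cd36 was 0.14 in Levosulpiride, 0.60 in Atenolol and -0.09 in Glyburide rats. The change turned sign in Levosulpiride and Atenolol, with limma adjusted p of 0.68 to 0.984. Against other CMC compounds of the same batches, a comparison of treated with treated rats, it was -0.30, 0.28 and -0.59 in that order, with adjusted p of 0.473 to 1.00.

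Single arrays also decided the calls of Cd36 in Atenolol and Glyburide rats. In Levosulpiride rats the call held with each array left out in turn (-1.79 to -1.34). The array of Glyburide 5 d replicate 2, with Cd36 at 6.21, had a Gapdh difference of 3.02, and without it the change was -1.37 (limma adjusted p = 0.0127). Atenolol 3 d replicate 1, with a Gapdh difference of 1.26, left -1.11 (adjusted p = 0.0114), while leaving out Atenolol 3 d replicate 2 or 5 d replicate 1 left -1.15 (0.0112) and -1.03 (0.0128). The Glyburide call was also lost without 3 d replicate 2 (-1.72, 0.0374), without 5 d replicate 1 (-1.95, 0.0140) and without any of 10 of 12 CMC controls, all but 3 d replicate 4 and 5 d replicate 5, at -1.78 to -1.87 with adjusted p of 0.0112 to 0.0183. The 5 endothelial genes, of a cell type that also makes Cd36, had 0 calls in these 3 compounds. Their array means were 7.88 to 8.37 in Levosulpiride, 8.06 to 9.13 in Atenolol and 7.95 to 8.91 in Glyburide rats against 7.79 to 8.82 in CMC controls. The 5 macrophage genes had 0 calls, with means of 5.46 to 6.415, 6.35 to 6.81 and 6.19 to 8.505 in that order against 6.10 to 8.47. In Levosulpiride rats 0 of 5 genes of either list were above 0, with median changes of -0.42 (endothelial) and -0.57 (macrophage). In Atenolol 2 endothelial and 1 macrophage gene were above 0, and in Glyburide 1 and 4. Of the 9 fat cell genes only Fabp4 was called, at -0.95 in Levosulpiride rats, and with the fat cell level as a covariate Cd36 stood at -1.66, -1.15 and -2.14 in the order Levosulpiride, Atenolol, Glyburide. The 4 red blood cell genes had 2 calls lower in Levosulpiride and 1 each in Atenolol and Glyburide, with array means of 6.38 to 7.46 in these 3 compounds against 7.36 to 8.10 in CMC controls, and the 4 tendon genes lay at 5.63 to 7.52 against 6.00 to 9.55. Of the tendon genes Fmod was called, at -2.79 in Levosulpiride rats (limma adjusted p = 0.00764). Of the 8 skeletal muscle genes Des was called, at -0.83 in Atenolol rats (limma adjusted p = 0.00794), and array means of that list reached down to 13.33 in Atenolol and 13.01 in Glyburide rats against 13.88 to 14.07 in CMC controls. The part of all these lists was not tested.

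**Figure D3:**
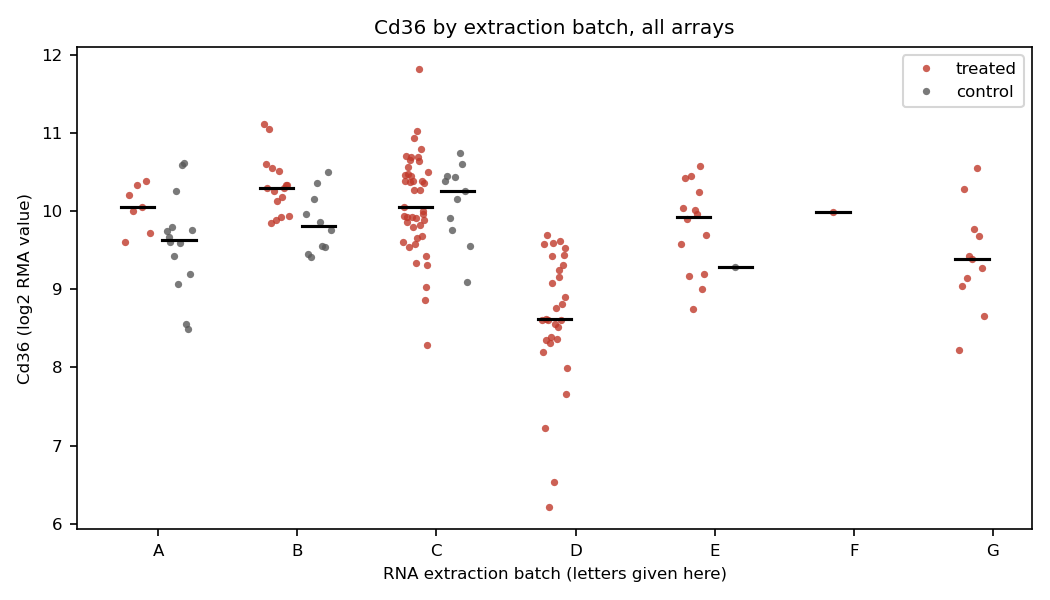
Cd36 on all 158 arrays, as log2 RMA value, by RNA extraction batch (letters given here), with treated arrays (red) left of controls (grey) and a bar at each median. The 30 treated arrays of batch D have a median of 8.62 and no control beside them.

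Slc22a5 in Guanethidine rats was 8.74, 8.38 and 8.38 at 3 d and 8.65, 8.11 and 8.47 at 5 d, against 6.49 to 7.92 with a median of 7.36 in CMC controls. All 6 arrays lay above all 12 controls, for a rise of 1.03 ± 0.16 (SE), 2.04-fold (limma adjusted p = 0.000428). Levosulpiride rats had 8.11, 7.90 and 8.01 at 3 d and 8.22, 8.35 and 7.80 at 5 d, with 4 of 6 above every control. Slc22a5 rose there by 0.64 ± 0.17 (SE), 1.55-fold (limma adjusted p = 0.00995), and missed the threshold without any of its 6 treated arrays (0.57 to 0.69, adjusted p of 0.0125 to 0.0320). With the title code as a random block it was 0.63 (adjusted p = 0.0222). The call was also lost without any of 8 of 12 CMC controls, namely 3 d replicates 2, 4, 6 and 7 and 5 d replicates 2, 3, 4 and 5, at 0.54 to 0.64. Slc22a5 had a median of 8.25 over the 30 treated arrays of batch D, and with batch as a block its change was 0.57 in Guanethidine and 0.16 in Levosulpiride rats (limma adjusted p = 0.264 and 0.916). Against other compounds of the same batches the change was 0.32 in Guanethidine and -0.18 in Levosulpiride rats (adjusted p = 0.913 and 0.976).

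The carnitine shuttle was represented by Cpt1a and Cpt1b, which form acylcarnitine at the outer membrane, Slc25a20, which exchanges it across the inner one, and Cpt2, which returns it to coenzyme A. Crat and Crot are acyltransferases for short and medium chains, and Mlycd removes malonyl-CoA, the inhibitor of Cpt1. Of 147 pairs 2 were called, Crot in Levosulpiride and Mlycd in Dicyclomine rats, beside 1.64% of all gene pairs.

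Crot in Levosulpiride rats was 9.94, 10.01 and 10.59 at 3 d and 10.24, 10.61 and 11.06 at 5 d, against 8.37 to 10.15 with a median of 9.07 in CMC controls. It lay above every control on 4 of 6 arrays and rose by 1.19 ± 0.25 (SE), 2.28-fold (limma adjusted p = 0.00267). Without 3 d replicate 3 the rise was 1.12 (adjusted p = 0.0103). The other 2 probe sets of Crot changed by -0.26 and -0.04 in the same rats, so the probe sets of Crot disagree, and with batch as a block the change of the first was 0.94 (limma adjusted p = 0.454).

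Mlycd, named after its values were seen, was 10.64 and 9.48 at 3 d and 9.20 and 10.18 at 5 d in Dicyclomine rats, against 8.93 to 9.59 with a median of 9.29 in Water controls. Only 2 of 4 arrays lay above the controls, and the rise of 0.63 ± 0.17 (SE), 1.55-fold, stood at the threshold (limma adjusted p = 0.00972). It fell to 0.38 (adjusted p = 0.117) without 3 d replicate 1 and to 0.50 (0.0891) without 5 d replicate 2, and missed the threshold without any of 17 of the 18 controls, all but 5 d replicate 7, at 0.61 to 0.64. Cpt1b, the muscle form, rose by 0.55 ± 0.13 (SE) in Dicyclomine rats at an adjusted p of 0.00606 (limma) but at 1.46-fold, short of 1.5. Cpt1a was highest in Guanethidine rats at 0.80 (adjusted p = 0.0171) and lowest in Spironolactone rats at -0.48. A further probe set of Cpt1a changed by -0.45 in Guanethidine rats (adjusted p = 0.0516), the opposite direction. Cpt2 was above 0 in 20 of 21 compounds, between -0.36 and 0.57, and Slc25a20 and Crat stayed between -0.39 and 0.51, with 0 pairs of these 3 genes at a limma adjusted p under 0.05.

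The 4 acyl-CoA dehydrogenases start each round for chains of falling length, from Acadvl through Acadl and Acadm to Acads. Of their 84 pairs 0 were called by limma, and 1, Acadl in Dicyclomine rats at 0.56 (adjusted p = 0.0260), passed 0.05. The largest change was that of Acadm in Glyburide rats. Acadm was 11.36 and 11.64 at 3 d and 12.07, 8.73 and 12.26 at 5 d there, against 11.46 to 12.77 with a median of 12.31 in CMC controls. The change of -0.90 ± 0.43 (SE) missed the threshold (limma adjusted p = 0.17), and without the array at 8.73, the one with the Gapdh difference of 3.02, it was -0.33.

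Hadha and Hadhb form the trifunctional protein for long chains, Hadh dehydrogenates shorter hydroxyacyl-CoA and Acaa2 cleaves the ketoacyl-CoA. None of their 84 pairs was called, while 10 passed an adjusted p of 0.05, as did 6.66% of all gene pairs, 18% of all genes in Dicyclomine and 11.2% in Etidronate. Hadhb rose by 0.42 ± 0.09 (SE) in Dicyclomine and by 0.35 ± 0.08 (SE) in Etidronate rats with limma adjusted p of 0.00148 and 0.00641, at folds of 1.34 and 1.27. Hadh stood at -0.47 ± 0.12 in Dicyclomine rats (SE, limma adjusted p = 0.00824), while its further probe set changed by 0.09 (adjusted p = 0.647), so the probe sets of Hadh disagree. Hadh also held the largest change of these steps, in Glyburide rats, with 10.47 and 10.24 at 3 d and 10.51, 7.20 and 10.88 at 5 d against 10.57 to 11.74 with a median of 11.29 in CMC controls. Although 4 of 5 arrays lay below every control, the change of -1.26 ± 0.43 (SE) missed the threshold (limma adjusted p = 0.0578), and it was -0.65 without 5 d replicate 2. The further probe set of Hadh changed by 0.07 in Glyburide rats.

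Etfa and Etfb pass electrons from the dehydrogenases to Etfdh, which hands them to the respiratory chain. They had 0 calls by limma in 63 pairs, 2 of them at an adjusted p under 0.05, Etfdh in Etidronate rats at 0.44 (0.0348) and Etfb in Dicyclomine rats at -0.34 (0.0486). Etfdh in Glyburide rats was 9.19 and 9.51 at 3 d and 9.89, 7.25 and 10.13 at 5 d, against 9.21 to 10.77 with a median of 10.22 in CMC controls. Its change of -0.86 ± 0.39 (SE, limma adjusted p = 0.15) was -0.40 without the array at 7.25, again 5 d replicate 2.

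Acot1 and Acot2 release fatty acids from coenzyme A in the cytosol and in mitochondria. The probe set of Acot1 was near the bottom of the table, with a control range of 3.54 to 3.93, and changed by at most 0.17. The probe set that stood for Acot2 was above 0 in 20 of 21 compounds and highest in Buspirone rats. There it was 9.99, 8.43 and 9.14 at 3 d and 9.82, 8.18 and 9.31 at 5 d. CMC controls ran from 7.43 to 9.12 with a median of 8.43. The change of 0.81 ± 0.25 (SE) missed the threshold (limma adjusted p = 0.093), and a further probe set of Acot2 changed by -0.44 and another by 1.54 in Buspirone rats. The first of these further probe sets changed by -1.12 in Atenolol, -1.325 in Glyburide and -1.05 in Levosulpiride rats (limma adjusted p of 0.00316 to 0.00559). The other changed by 0.75, 0.21 and 0.47 in that order, so the probe sets of Acot2 disagree.

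Plin2 and Plin5 coat lipid droplets, Plin5 where these meet mitochondria, and both were called in Etidronate rats, in opposite directions. Plin5 was 8.47, 7.85 and 8.34 at 3 d and 8.51, 7.80 and 8.98 at 5 d, against 6.34 to 8.35 with a median of 7.25 in Water controls. It lay above the control mean on all 6 arrays and above every control on 3, a rise of 1.03 ± 0.23 (SE), 2.04-fold (limma adjusted p = 0.0054). The call of Plin5 was lost without Etidronate 3 d replicate 1 or 3 or 5 d replicate 1 or 3 (0.89 to 1.03, adjusted p of 0.0118 to 0.0235). Both genes of this pair, as called in Etidronate, were named after their values were seen.

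Plin2 was 9.05, 9.23 and 8.64 at 3 d and 9.16, 9.52 and 9.29 at 5 d in Etidronate rats, against 9.02 to 10.36 with a median of 9.80 in Water controls. Its change was -0.62 ± 0.15 (SE), 1.54-fold lower (limma adjusted p = 0.00668), with all 6 arrays below the control mean and 1 below every control. The call was lost without 3 d replicate 1, 2 or 3 or 5 d replicate 1 of Etidronate (-0.50 to -0.65, adjusted p of 0.0113 to 0.0292), and without Water control 3 d replicate 7 or 5 d replicate 2 or 6 (-0.61, 0.0101 to 0.0105). Plin2 changed by -0.78 in Dicyclomine rats (adjusted p = 0.0136) and by -0.72 in Phenytoin rats (0.0359). The further probe set of Plin2 changed by -0.43 in Etidronate (limma adjusted p = 0.0387), by -0.60 in Dicyclomine (0.00981) and by -0.15 in Phenytoin rats (0.665). The largest change of Plin5 was in Azaribine rats, with 7.78, 8.86 and 8.07 at 3 d and 8.59, 8.19 and 9.03 at 5 d against 5.46 to 8.82 in CMC controls, but at 1.27 ± 0.49 (SE) it missed the threshold by far (limma adjusted p = 0.638). Plin5 varied more in CMC controls than in Water controls, with an SD of 1.20 (n = 12) against 0.53 (n = 18). Of the marker lists in Etidronate rats only the endothelial gene Kdr was called, at -0.85 (limma adjusted p = 0.00242), with endothelial means of 7.68 to 8.38 against 7.68 to 8.81 in Water controls. The array means of 9 fat cell genes, Lipe and Plin1 among them, were 6.20 to 6.66 in Etidronate rats, within the 6.11 to 8.53 of Water controls. The part of these genes was not tested.

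**Figure D4:**
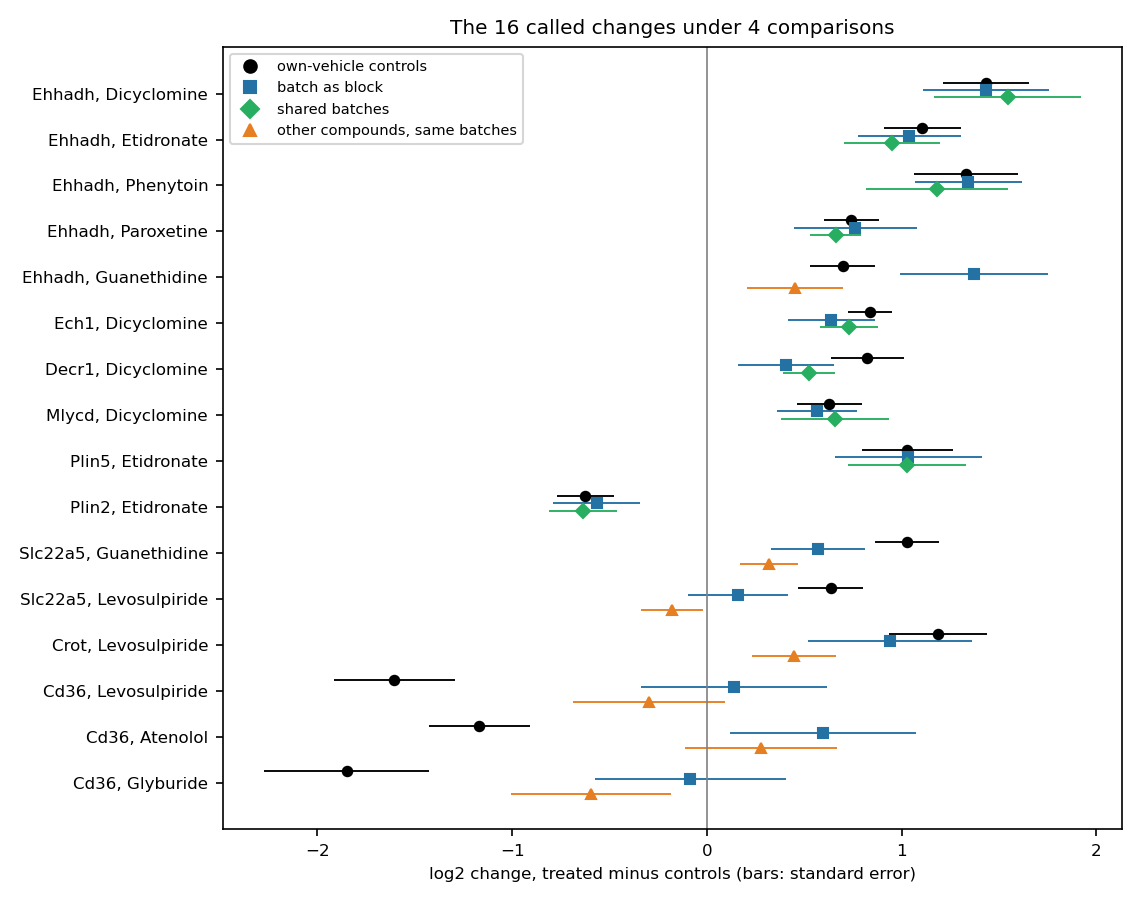
The 16 called changes, as log2 treated minus controls with standard errors, against own-vehicle controls (black), with extraction batch as a block (blue), within batches that hold both treated and control arrays (green) and against other compounds of the same batches (orange). The changes of Ehhadh in Dicyclomine, Etidronate and Phenytoin keep their size, while those of Cd36 move to between -0.59 and 0.60.

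Across compounds the members lay above 0 more often than below. The median change of the 32 genes was above 0 in 19 of 21 compounds and ran from -0.37 in Glyburide to 0.33 in Etidronate rats, beside a median over all genes of -0.01 to 0.03. It stayed above 0 with any 1 array left out in 16 of the 19, and its sign turned in Atenolol (-0.08 to 0.22), Chlorpropamide (-0.06 to 0.25) and Levosulpiride (-0.05 to 0.08). In Glyburide it was -0.15 without 5 d replicate 2, the array with the Gapdh difference of 3.02. In Etidronate rats 29 of 32 members were above 0, where 48.7% of all genes were, and in Azaribine 30 of 32 with 52.1% of all genes. The mean of 7 slow fibre genes lay at 11.48 to 13.22 in Azaribine rats, against 5.35 to 12.92 in CMC controls. All 7 were above 0 and 0 were called, and their part was not tested. Of the Azaribine arrays only 3 d replicate 2, in batch A, shared a batch with CMC controls. Glyburide rats had 6 of 32 above 0 where 54.2% of all genes were. These medians share their controls within a vehicle, and the members of 1 array share its RNA, so no test was made of them.

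Array by array, the median of the 32 genes relative to the control mean ran from -1.26 to 0.76 over treated arrays. The Water controls themselves ran from -0.33 to 0.41 (SD 0.21, n = 18) and the CMC controls from -0.60 to 0.56 (SD 0.37, n = 12). Their lowest arrays, Water 5 d replicate 8 and CMC 5 d replicate 5, also had the lowest slow fibre means of their vehicles, 5.49 and 5.35. The median change of the 7 slow fibre genes ran from -1.88 in Phenytoin to 1.98 in Azaribine rats. The members had medians of 0.18 and 0.32 in these 2 compounds. The part of fibre type in the medians of the members was not tested. The lowest treated values were -1.26 in Glyburide 5 d replicate 2, -0.87 in Chlorpropamide 3 d replicate 2 and -0.82 in Atenolol 3 d replicate 1, which are the 3 arrays with a Gapdh difference over 1.

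**Figure D5:**
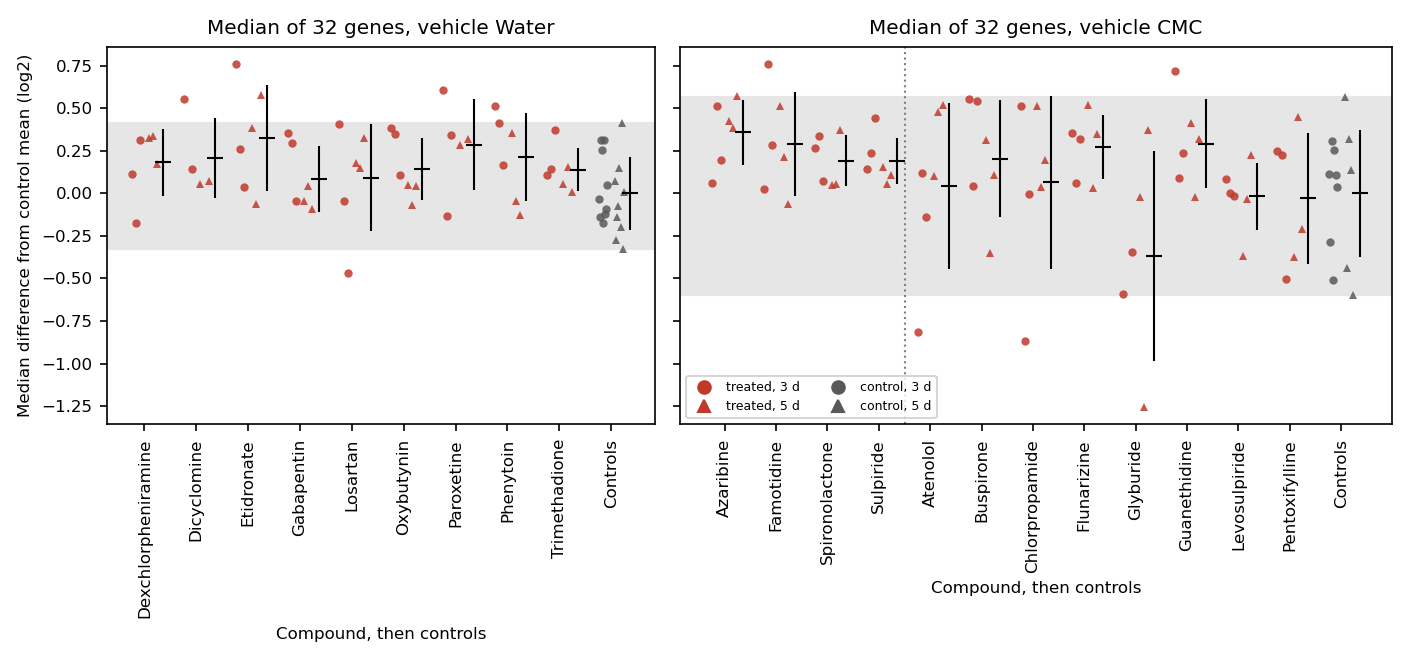
Median over the 32 genes of each array's log2 difference from its vehicle's control mean, by compound (red) with controls (grey) at the right; circles are 3 d, triangles 5 d, bars mean ± SD over arrays, the grey band the control range and the dotted line the CMC compounds without CMC controls in their batches. Most treated arrays fall within the control band, and the lowest, at -1.26, is 1 array of Glyburide.

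Variation among the controls gives the scale of these values. No member passed the test of 5 d minus 3 d in Water and CMC controls (limma, 1 member and 455 genes at an unadjusted p under 0.05), of Water minus CMC (0 members and 1224 genes) or of CMC/SDS/Povidone minus CMC (2 members and 1146 genes). After adjustment 0, 0 and 1 of all genes (0%, 0% and 0.00703%) passed 0.05 in these 3 tests. The median difference of the members was -0.06, 0.06 and 0.18 in that order.

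Both pairs of related compounds had been given at different doses, so their values are set side by side only. Levosulpiride, the levo enantiomer of Sulpiride, was given at 1200 mg/kg and the racemate Sulpiride at 1000 mg/kg. Cd36 changed by -1.60 with Levosulpiride and by -0.00015 with Sulpiride, Crot by 1.19 and 0.13, and Slc22a5 by 0.64 and 0.33. The sulfonylureas Glyburide at 1500 mg/kg and Chlorpropamide at 269 mg/kg had Cd36 at -1.85 and -0.96, Hadh at -1.26 and -0.70 and Slc22a5 at 0.69 and 0.73. Levosulpiride lay wholly in batch D and Sulpiride wholly in batch A, so batch and compound cannot be told apart in that pair. All arrays of Glyburide and 5 of 6 of Chlorpropamide were in batch D, which had no control. Compound and batch therefore cannot be told apart in the changes of the sulfonylureas either. Glyburide and Chlorpropamide each had 1 array with a Gapdh difference over 1, with Cd36 at 6.21 and 6.54.

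Further lists of the pathway were counted in the same fits. Of the other enzymes of fatty acid oxidation 35 of 38 were measured, with 13 calls in 735 pairs (1.77%), 8 higher and 5 lower, beside 1.64% of all gene pairs, 0.688% higher and 0.949% lower. Acad11, an acyl-CoA dehydrogenase, rose in Dicyclomine (2.05 ± 0.27), Etidronate (1.24 ± 0.28) and Trimethadione rats (1.03 ± 0.21, SE). Acsl6, a long-chain acyl-CoA synthetase, fell in Dicyclomine (-1.44), Phenytoin (-0.86) and Oxybutynin rats (-0.73). Pex11a, a peroxisomal membrane protein, rose in Glyburide (0.78) and Guanethidine rats (0.60), both compounds without CMC controls in their batches.

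Of the regulators and fuel switch genes 21 of 22 were measured, with 17 calls in 441 pairs (3.85%, beside the same 1.64%), 4 higher and 13 lower. Rxra, the partner of the PPARs, fell in Atenolol (-0.83), Glyburide (-0.80), Chlorpropamide (-0.71) and Guanethidine rats (-0.61), 4 compounds without CMC controls in their batches. Acacb, which makes the malonyl-CoA that restrains Cpt1, fell in Glyburide (-1.47), Atenolol (-1.08) and Levosulpiride rats (-1.003), again in compounds without such controls. Pdk4, the kinase that turns off pyruvate dehydrogenase, rose in Gabapentin (1.91 ± 0.29, SE) and Etidronate rats (1.56 ± 0.27, SE). Ucp3, a mitochondrial carrier, rose in Gabapentin rats (1.33) and fell in Oxybutynin rats (-1.46), while Lpin1, a phosphatase and coactivator, rose in Sulpiride (0.91) and fell in Dicyclomine rats (-0.71).

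All 7 lipolysis genes were measured, with 6 calls in 147 pairs (4.08%, beside 1.64%), 4 higher and 2 lower. Pnpla2, the first lipase of stored triglyceride, rose in Dicyclomine (2.12 ± 0.30) and Etidronate rats (1.46 ± 0.25, SE). Plin4, another droplet coat, rose in Etidronate (0.62) and Paroxetine rats (0.59). Both calls lower were of G0s2, the inhibitor of Pnpla2, named after its values were seen, which fell in Dicyclomine (-1.99 ± 0.39) and Gabapentin rats (-1.76 ± 0.30, SE). All of these changes were calls by limma, with adjusted p of 2.86e-05 to 0.00862 for the genes named.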

How the data were processed

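Biotin-labelled polyA RNA of thigh muscle was hybridized to Affymetrix RG230_2.0 arrays, 1 per animal sample. The deposited values are on the log2 scale, normalized by the authors with RMA per the submitters' processing notes, with the version not given in the sources used here. The study's methods name frozen RMA. RMA compresses changes of dim transcripts, and the table holds no detection calls, so the number of arrays limits the precision. Each array value is 1 animal, and p-values measure the spread between these animals and arrays. Probe sets with 1 gene symbol in the platform annotation gave 14217 genes (20826 of 31099 probe sets), and 9 members had 13 further probe sets. All 32 members matched the current rat gene table.

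Compound, vehicle and time as labelled set the groups. The labels of 1 CMC control conflicted (5 d in its title, 3 d elsewhere), and 3 d was used. Replicates were numbered in order of deposit. No pair of arrays held identical values, with correlations between arrays of 0.857 to 0.997.

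Each compound was tested against the controls of its own vehicle with time as a covariate in limma 3.58.1 (R 4.3.3), where the study's methods name a t-test for each compound corrected for time. Calls needed at least 1.5-fold change and, after Benjamini-Hochberg adjustment across the genes, a p no higher than 0.01. The fit was tested on simulated data. Further fits tested time by treatment, and time and vehicle in controls, at 0.05. Start regions came from RefSeq on GRCr8. The members, lists and tests were chosen with earlier results of these data known.

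Values in every array are given for the 6 members called in most compounds, the called member with the largest change of each compound with controls in its batches, and the largest change of each role. Of the other pathway genes, the 10 called in most compounds are named, with ties broken by the smallest adjusted p. Alternatives covered extraction batch and hybridization period as blocks, shared batches alone, other compounds of the same batches, the fat cell level, the probe sets, a level filter, centring, an ordinary t statistic in place of limma's moderated one, thresholds, single times, the unclear control and each array left out. The settings without the 3 arrays of Gapdh difference over 1, with controls of the same title code alone and with that code as a random block were added after seeing the data. Each compound's arrays carried 1 title code, and 4 compounds shared theirs with controls of their vehicle.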

Additional observations from a re-analysis of the deposited data

Results flagged for a closer look

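In 7 of 160 tests, each of 1 member in 1 control group, an array lay far from the others by Dixon's ratio of gap to range, where chance gives about 1 in 20. Treated groups held 2 or 3 arrays and were not tested. Cpt1a had a highest value of 7.71 in the CMC controls at 3 d (replicate 5, next 6.79) and of 7.35 in the Water controls at 3 d (replicate 8, next 6.75). The same CMC control, replicate 5, had the highest Mlycd, 9.92, with the next at 9.36. The same Water control, replicate 8, had the lowest Crat, 10.96, with the next at 11.3.

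Cd36 was lowest in 1 CMC control at 3 d, replicate 4, at 8.56 with the next at 9.66. That array also had the lowest Lpl, 11.27, with the next at 11.6. Cd36 was also lowest in 1 CMC control at 5 d, replicate 5, at 9.2 with the next at 10.3.

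The effect of Etidronate on Ehhadh differed between times, at 5 d minus 3 d by -1.448 on the log2 scale. The 3 arrays at 3 d and the 3 at 5 d do not overlap, and the difference passed the test of time by treatment (limma adjusted p = 0.0161).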

How the results depend on the processing

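No paired analysis was possible because the labels give no replicate numbers, and the numbers used here follow the order of deposit. Apart from those named as chosen after seeing the data, the settings below were chosen with the main ones, and counts are of the 32 members called by limma unless another statistic is named. Where cause is not stated, the cause was not tested.

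With extraction batch as a block, 3 of the 16 calls were left, 1 each in Dicyclomine, Etidronate and Phenytoin, and 0 in Atenolol, Glyburide, Guanethidine, Levosulpiride and Paroxetine. With hybridization period as a block, Dicyclomine had 2, Guanethidine 1, and Atenolol, Glyburide, Levosulpiride and Paroxetine 0. Within shared batches, with fewer arrays, the count was 0 in Dicyclomine, Etidronate, Paroxetine and Phenytoin. Against other compounds of the same batches it was 0 in Atenolol, Glyburide, Guanethidine and Levosulpiride. From 3 d arrays alone, fewer again, Phenytoin had 3 and Atenolol, Dicyclomine, Glyburide, Guanethidine, Levosulpiride and Paroxetine 0. The 7 calls at 3 d fell in Etidronate and Phenytoin, with Ech1 and Mlycd added in both. That was 1.04% of member pairs beside 0.411% of all gene pairs. From 5 d arrays alone, Atenolol, Etidronate, Glyburide, Guanethidine, Levosulpiride, Paroxetine and Phenytoin had 0. The 3 calls at 5 d, all in Dicyclomine with Hadh added, were 0.446% of member pairs beside 0.38% of all gene pairs.

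At an adjusted p of 0.05 with no minimum fold, the counts were Dicyclomine 13 (18% of all genes), Etidronate 10 (11.2%), Guanethidine 6 (19.3%), Atenolol 5 (19.7%), Levosulpiride 5 (23.8%), Phenytoin 5 (3.08%), Glyburide 4 (14%), Paroxetine 3 (3.36%), Trimethadione 2 (3.95%), and 1 each in Chlorpropamide (13.5%), Losartan (2.43%) and Spironolactone (1.15%). With the fat cell level as a covariate, Atenolol and Glyburide had 2, Chlorpropamide and Etidronate 1 and Phenytoin 0. Among genes above the median level, which leaves out the dim probe sets of Ehhadh and Acot1 and with them all 5 calls of Ehhadh, Chlorpropamide and Guanethidine had 1 and Paroxetine and Phenytoin 0. With an ordinary t statistic, Etidronate and Guanethidine had 1 and Atenolol, Glyburide, Paroxetine and Phenytoin 0. Without the CMC control of unclear time, Guanethidine had 1 and Glyburide 0. Without the 3 arrays of Gapdh difference over 1, a setting chosen after seeing the data, Chlorpropamide had 1 and Glyburide 0, and Atenolol had Slc22a5 in place of Cd36. Title codes were also used after seeing the data. As a random block the code gave 20 calls in all, 14 of them among the 16, with 4 in Glyburide (7.15% of all genes called), 2 in Atenolol (6.41%), 2 in Phenytoin (0.598%), 1 in Chlorpropamide (4.14%) and 1 in Guanethidine (4.08%). Against controls of the same code alone, with fewer arrays, Dicyclomine had 0. Centring each array gave 16 calls, of which 14 were among the 16, with Plin2 in Etidronate and Slc22a5 in Levosulpiride lost. The mean of all probe sets gave 15, of which 14 were among the 16, with Plin2 in Etidronate and Crot in Levosulpiride lost. The shares of member pairs and of all gene pairs called were 0.893% and 1.02% with the hybridization block. They were 2.38% and 1.72% with the fat cell covariate, and 1.04% and 1.28% with the ordinary t statistic. Among genes above the median level they were 2.06% and 2.74%. Without the arrays of Gapdh difference over 1 they were 2.08% and 3.98%, over 3 compounds. Without the CMC control of unclear time they were 1.3% and 1.85%, over 12 compounds. Within shared batches they were 0% and 0.143%, against other compounds of the same batches 0% and 0.00967%, and with the title code as a random block 2.98% and 1.8%.

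Leaving out 1 array at a time, the count ran from 2 to 7 in Dicyclomine, 1 to 4 in Etidronate and 1 to 3 in Guanethidine. It ran from 1 to 3 in Levosulpiride, 0 to 2 in Paroxetine and Phenytoin, and 0 to 1 in Atenolol, Chlorpropamide and Glyburide. The share of all genes called in each of these fits is not given here. The counts therefore show only how far the calls rest on single arrays, not an excess over other genes.

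Of 229 alternative medians over the members, 5 moved by more than the spread between replicate arrays, to 0.65 in Azaribine within shared batches, 0.0896 in Flunarizine and 0.0147 in Spironolactone with the fat cell covariate, -0.0056 in Trimethadione with the batch block, and 0.7765 in Sulpiride against the 1 control of its title code. Of the called genes, Cd36 changed sign in Atenolol, to 0.60 with the batch block and 0.28 against other compounds of the same batches, and in Levosulpiride, to 0.14 with the batch block. Slc22a5 in Levosulpiride changed sign to -0.18 against other compounds. The dim probe sets of Acot1 and Ehhadh limit what can be read from them, since signal over background is not known.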

Other observations

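The array of Oxybutynin at 3 d named replicate 2 had Ucp1 at 11.14 and Adipoq at 10.56, with a mean over fat cell genes of 9.41, while Ehhadh stood at 5.75 and Cd36 at 10.56. It was the highest Ucp1 value of all arrays, and the next was 7.05 in Phenytoin 3 d replicate 3, whose Ehhadh was 7.61. The Guanethidine 5 d array named replicate 1 had the highest Adipoq, 11.91, with Ehhadh at 5.62 and Cd36 at 9.58.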
